A study of Homo sapiens with 4 samples.

Results

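The 10 genes described here encode the cytoplasmic actins (ACTB, ACTG1), the 4 tropomyosins (TPM1, TPM2, TPM3, TPM4), the regulatory light chains MYL9 and MYL12A of non-muscle and smooth muscle myosin II, the crosslinker filamin A (FLNA) and the adhesion protein vinculin (VCL). They were taken from the table by symbol and are 10 of its 23368 genes. The rule used no measured value, but the choice was made with earlier results of these data known. RNA was sequenced from HepG2, an established cell line from a human liver tumour, with 1 library for each condition. The shCtrl library came from cells with a lentiviral control short hairpin RNA, and the shPJA1 library from cells with a lentiviral hairpin against PJA1, whose product is a ubiquitin ligase with a RING domain. The TGFb1 library came from cells given TGF-beta1, for which the treatment protocol states 200 pM for 1 hour, and the labels do not say whether these cells carried a hairpin. The remaining library has the title shPJA/TGFb1, but its treatment label reads water and the series' design text has a plain control in its place. It is called the shPJA/TGFb1-titled library, or the titled library for short, and was compared by its title.

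Actin monomers polymerize into filaments that give an epithelial cell its cortex, stress fibres and junctional belts. Tropomyosins lie along the filament and govern which motors and severing proteins reach it, myosin II pulls on it once its regulatory light chains are phosphorylated, filamin A ties filaments into networks, and vinculin couples them to talin at integrin adhesions and to alpha-catenin at cell junctions. Many of these genes are textbook targets of serum response factor (SRF) and its actin-binding coactivators MKL1 and MKL2 (MRTF-A and MRTF-B), and TGF-beta is known to act on stress fibres and cytoskeletal genes in epithelial cells, mostly over many hours.

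SRF binds a short palindromic element, the CArG box, so the RefSeq promoter windows of these genes (GRCh38.p14, 250 bases before to 50 after each annotated start) were searched for it. A window was at hand for 8 of the 10 genes, 14 windows in all. ACTB and MYL9 had 0 windows, so their promoters were not searched. The element stood in 1 window each of ACTG1, FLNA and TPM4. Over all 35116 windows of this length it stood in 1.29%. The 250 bases before those 3 starts are shown, 5′ to 3′ on the gene's own strand and with the element in capitals, because they hold the match. ACTG1 lies on the minus strand at chr17:81512800-81513049, with the element beginning 94 bases before the start. FLNA lies on the minus strand at chrX:154374635-154374884, with the element at the same distance. The TPM4 window, at chr19:16067288-16067537 on the plus strand, is 1 of 3 annotated for this gene and has the element 173 bases before the start.
ACTG1: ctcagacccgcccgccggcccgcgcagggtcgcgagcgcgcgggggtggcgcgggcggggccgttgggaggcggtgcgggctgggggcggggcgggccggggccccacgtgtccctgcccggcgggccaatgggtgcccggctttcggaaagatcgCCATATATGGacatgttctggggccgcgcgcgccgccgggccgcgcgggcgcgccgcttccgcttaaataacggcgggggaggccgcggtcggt
FLNA: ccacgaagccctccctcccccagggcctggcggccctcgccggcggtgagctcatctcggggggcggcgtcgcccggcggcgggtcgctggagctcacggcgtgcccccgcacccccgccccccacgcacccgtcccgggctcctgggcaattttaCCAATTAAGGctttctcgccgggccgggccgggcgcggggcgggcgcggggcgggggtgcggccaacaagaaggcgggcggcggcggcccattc
TPM4: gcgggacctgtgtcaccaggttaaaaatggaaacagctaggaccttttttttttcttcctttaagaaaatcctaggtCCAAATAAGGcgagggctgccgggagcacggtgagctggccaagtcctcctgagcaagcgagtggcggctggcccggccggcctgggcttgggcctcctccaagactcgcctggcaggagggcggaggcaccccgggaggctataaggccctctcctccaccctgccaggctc
The matched letters were CCATATATGG in ACTG1, CCAATTAAGG in FLNA and CCAAATAAGG in TPM4. The GC-box letters GGGCGG, on either strand, were found in 12 of the 14 windows and in 45.0% of all windows. Each of the 8 genes had at least 1 such window. TATAAA was in none of the 14 windows and in 11.5% of all. CATTCC, the letters bound by TEAD factors, was found in 2 of the 14 windows, of MYL12A and VCL, and in 14.0% of all windows. The SMAD palindrome GTCTAGAC was in none of the 14 and in 0.202% of all. These matches describe the letters of the windows only.

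The libraries held 1363318 reads (shCtrl), 1784689 (shPJA1), 2848665 (TGFb1) and 990698 (titled shPJA/TGFb1), and the values given are normalized counts, that is, reads over the size factor of each library. The hairpin's target PJA1 was at 50.3 in shCtrl, 15.3 in shPJA1 and 38.2 in TGFb1, with 9.78 in the shPJA/TGFb1-titled library, where 9.78 rests on 6 reads. SMAD7, an inhibitory SMAD that TGF-beta induces, was at 83.0, 69.3, 168 and 158 in the same order, so that both libraries with TGFb1 in the title were high. All 9 hepatocyte markers had reads, and their summed normalized count was 32648 to 38257. Of the smooth muscle and myofibroblast markers 7 of 10 had a read, with ACTG2, DES and MYOCD at 0 and a summed count of 319.6 to 378, and of the striated muscle markers 2 of 6, summing to 1.17 to 3.60. ACTA2 at 185 and TAGLN at 147 held most of the smooth muscle and myofibroblast sum of 354 in shCtrl. The endothelial list summed to at most 3.51, with CDH5 and KDR at 0. The leukocyte list summed to at most 19.6, with PTPRC and CD3E at 0. In bulk RNA, fewer cells that express a gene and less of its RNA per cell cannot be told apart.

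The 10 genes together took 0.589% of all reads in shCtrl, 0.546% in shPJA1 and 0.564% in TGFb1, with 0.638% in the shPJA/TGFb1-titled library, most of it from the pair of cytoplasmic actins. By mean normalized count ACTB ranked 16 and ACTG1 21 in the whole table, FLNA 207, and TPM2 last of the 10 at 8016. Per kilobase of annotated transcript, ACTB lay between 1711 and 2134 normalized counts over the 4 libraries and ACTG1 between 1284 and 1608. TPM1 followed at 294 to 348, then TPM3 at 206 to 240.1 and MYL12A at 195 to 229, whose ranges overlapped, and TPM4 at 145 to 195. FLNA lay at 96.5 to 106 and VCL at 40.5 to 50.2 per kilobase. TPM2, at 12.9 to 27.8, and MYL9, at 11.9 to 16.2, overlapped at the bottom. The middle of this order depends on which transcript was chosen and on how much untranslated sequence it has. The transcript chosen for TPM4 has 852 coding bases, the same as those chosen for TPM1 and TPM2. Which isoforms were expressed here was not resolved. Per kilobase of coding sequence, TPM4 at 433 to 581 overlapped MYL12A at 467 to 550 and both lay above TPM1 and TPM3, and the ranges of ACTB (2921 to 3644) and ACTG1 (2575 to 3224) overlapped.

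**Figure D1:**
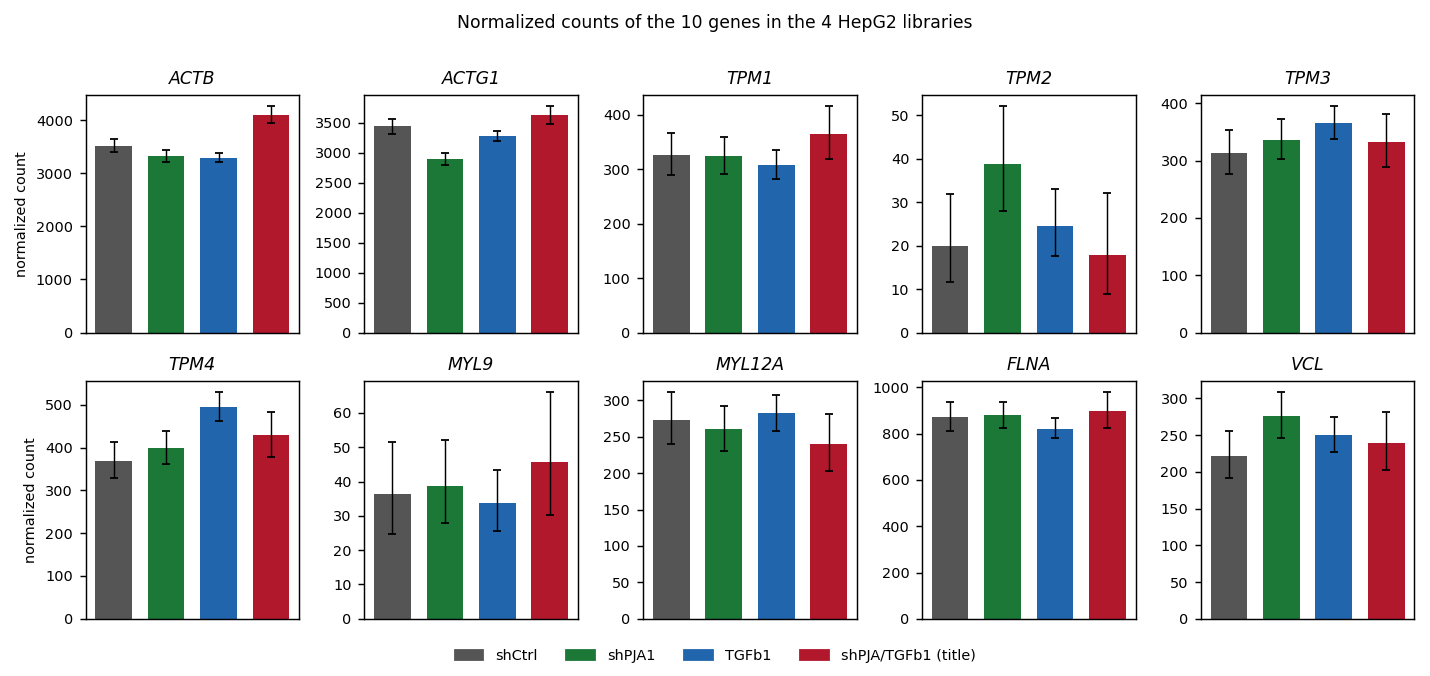
Normalized count of each of the 10 genes (vertical axis from 0, its own scale per panel) in the 4 libraries, as bars with exact 95% Poisson intervals of the reads, which cover counting error only. ACTB reaches 4099 in the shPJA/TGFb1-titled library against 3287 to 3517 in the others, TPM4 is at 495 in TGFb1, and TPM2 at 38.7 in shPJA1, while FLNA stays between 822 and 899.7.

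Most of the 10 genes stayed within narrow limits. The highest library exceeded the lowest 1.09-fold for FLNA, 1.17-fold for TPM3, 1.18-fold for MYL12A, 1.19-fold for TPM1, 1.24-fold for VCL and 1.25-fold for each actin, and reached 1.34-fold for TPM4, 1.36-fold for MYL9 and 2.16-fold for TPM2. Ratios between 2 libraries are given below with an exact conditional 95% interval of the reads, which covers counting error and not the spread between cultures. In shPJA1 over shCtrl the interval excluded 1 for 4 of the 10 genes, where the same held for 9.45% of the 13387 genes kept and for 24.8% of the 2062 genes with a mean of at least 200, as 8 of these 10 have. TPM2 and VCL were above (4.98% of all genes kept were) and ACTB and ACTG1 below (4.47%). In TGFb1 over shCtrl the interval excluded 1 for 4, against 17.2% and 44.1%, with TPM3 and TPM4 above (9.12%) and ACTB and ACTG1 below (8.04%). With the trend on GC content removed, 3 were above and 0 below in that pair. ACTB was then no longer off 1, and ACTG1 was barely above it at 1.05 (1.001 to 1.095). The count in TGFb1 over shCtrl lies at the rate of genes this abundant.

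In the titled library over shPJA1 the interval excluded 1 for 3, against 7.87% and 18.3%, with ACTB and ACTG1 above (4.24%) and TPM2 below (3.64%). Over TGFb1 it excluded 1 for 4, against 12.9% and 32.3%, with ACTB, ACTG1 and TPM1 above (6.36%) and TPM4 below (6.49%). Over shCtrl ACTB alone was off 1, against 7.50% and 17.3%, and it was above (4.20%), with 0 of the 10 below (3.30%). Abundant genes had such intervals often. Among the 41 genes with a mean of at least 2000, as both actins have, the share was 68.3% in shPJA1 over shCtrl, 85.4% in TGFb1 over shCtrl, and in the titled library 56.1% over shPJA1, 61.0% over TGFb1 and 48.8% over shCtrl. An actin interval that excludes 1 is therefore common at that depth.

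Only 1 gene of the 10, TPM2 in the shPJA/TGFb1-titled library over shPJA1, reached 2-fold on log2 of the normalized count plus 1 in any of the 5 pairs. The background for that rule was 8.23% of genes in shPJA1 over shCtrl, 8.84% in TGFb1 over shCtrl, 11.1% in the titled library over shPJA1, 9.94% over TGFb1 and 12.1% over shCtrl. The median log2 ratio of the 10 genes was 0.05, -0.01, 0.07, 0.03 and 0.10 in the same order, beside medians between -0.01 and 0.00 for all genes kept. The 10 genes therefore had no large common displacement in any pair.

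**Figure D2:**
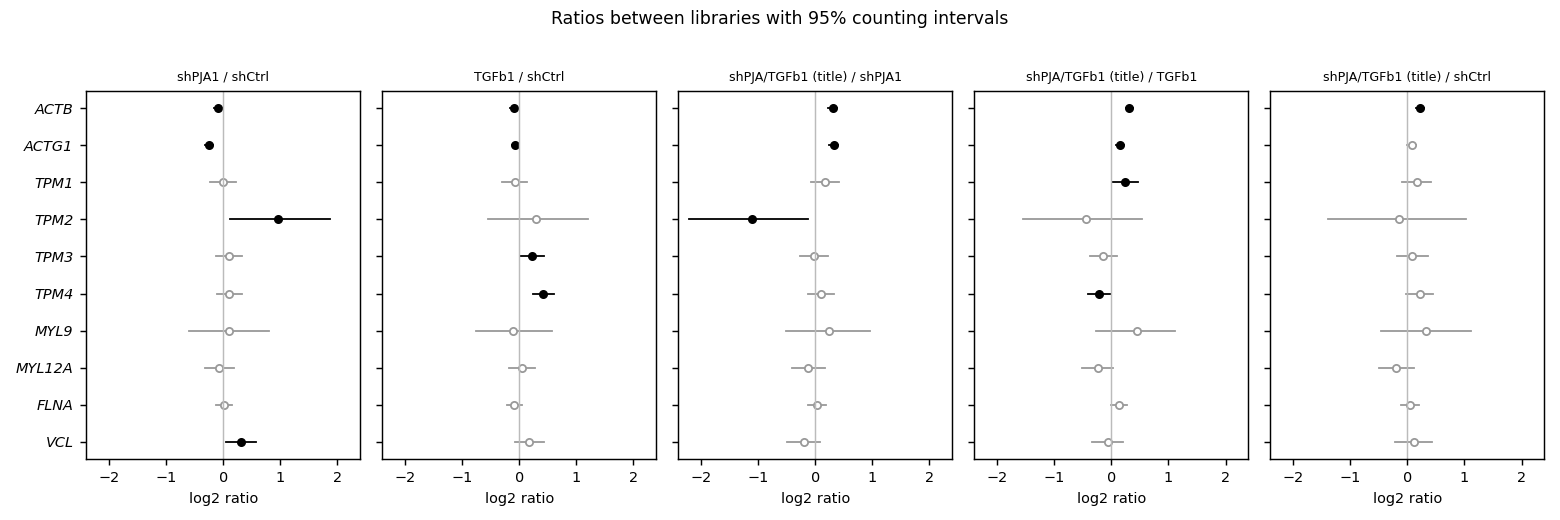
Log2 ratio of each of the 10 genes in 5 pairs of libraries, with 95% counting intervals as lines (filled points have an interval that excludes 0). The 2 actins lie left of 0 in the pairs over shCtrl of shPJA1 and TGFb1 and right of 0 in the pairs of the titled library over shPJA1 and TGFb1, and TPM2 has the widest displacement, from 0.96 to -1.11.

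Beta-actin, ACTB, was at a normalized count of 3517 in shCtrl (3009 reads), 3320 in shPJA1 (3687 reads), 3287 in TGFb1 (5771 reads) and 4099 in the shPJA/TGFb1-titled library (2515 reads). The titled library was the high one and the other 3 lay close together. Its ratio was 0.944 (0.899 to 0.991) in shPJA1 over shCtrl and 0.935 (0.894 to 0.977) in TGFb1 over shCtrl. In the titled library the ratio was 1.23 (1.17 to 1.30) over shPJA1, 1.25 (1.19 to 1.31) over TGFb1 and 1.17 (1.11 to 1.23) over shCtrl.

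Gamma-actin, ACTG1, which differs from beta-actin at a few residues near its start, was at 3441 in shCtrl (2944 reads), 2897 in shPJA1 (3217 reads), 3278 in TGFb1 (5756 reads) and 3627 in the shPJA/TGFb1-titled library (2225 reads). Here shPJA1 was the low library. The ratio was 0.842 (0.800 to 0.885) in shPJA1 over shCtrl and 0.953 (0.911 to 0.996) in TGFb1 over shCtrl. The titled library stood at 1.25 (1.19 to 1.32) over shPJA1, 1.11 (1.05 to 1.16) over TGFb1 and 1.05 (0.997 to 1.11) over shCtrl.

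The share of ACTB in the actin reads was lowest in TGFb1 and highest in shPJA1. ACTB made up 50.5% of the reads of both actins in shCtrl (49.3% to 51.8%, exact binomial interval) and 50.1% in TGFb1 (49.1% to 51.0%), but 53.4% in shPJA1 (52.2% to 54.6%) and 53.1% in the shPJA/TGFb1-titled library (51.6% to 54.5%). Both libraries with the PJA1 hairpin in the title were thus the higher ones, and the interval of the titled library overlapped that of shCtrl at its edge. The odds of a read being ACTB were 1.12 times (1.05 to 1.20) as high in shPJA1 as in shCtrl and 1.13 times (1.05 to 1.21) as high in the titled library as in TGFb1. They were 1.11 times (1.02 to 1.19) as high in the titled library as in shCtrl. They were 0.981 times (0.921 to 1.04) as high in TGFb1 as in shCtrl and 0.986 times (0.916 to 1.06) as high in the titled library as in shPJA1. With the GC trend removed the ACTB shares were 50.6%, 53.4%, 49.9% and 53.2% in shCtrl, shPJA1, TGFb1 and the titled library. This share was computed after the levels had been seen, the intervals cover counting error only, and whether it differs between conditions was not tested. How often pairs of other genes this abundant have such odds ratios was not computed. The coding sequences are highly alike, and the annotation used for lengths lists 10 pseudogenes named after ACTB and 20 after ACTG1, of which 0 are in the deposited table. The split between these genes is uncertain, since the sources used here do not say how reads that match several copies were assigned.

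**Figure D3:**
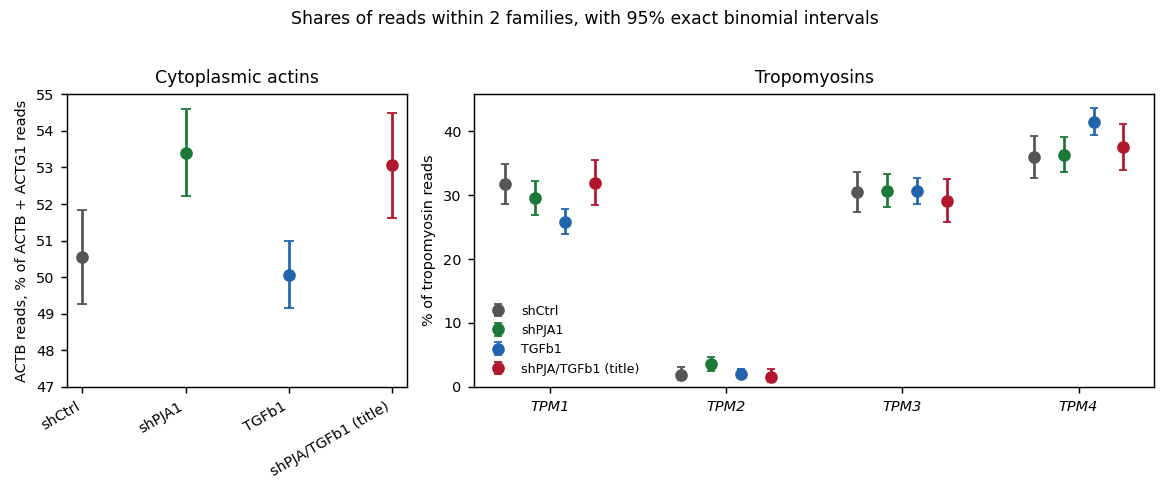
Left, ACTB reads as a percentage of ACTB and ACTG1 reads in each library (vertical axis not from 0), and right, each tropomyosin as a percentage of all tropomyosin reads, as points with exact 95% binomial intervals. ACTB is at 53.4% and 53.1% in the libraries with a PJA1 hairpin in the title against 50.5% and 50.1% in the other 2, and TPM4 is at 41.5% in TGFb1 against 35.9% to 37.5% elsewhere.

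The other actin genes were minor or near 0. ACTA2, smooth muscle alpha-actin and a common marker of activated myofibroblasts, was at 185 in shCtrl, 179 in shPJA1 and 175 in TGFb1, with 187 in the titled library, so no library stood apart. ACTA1 of skeletal muscle had 1 or 2 reads in each library, ACTBL2 had 1 read in all, and cardiac ACTC1 and enteric ACTG2 had 0, with 3 reads being the limit that a count of 0 allows. These 5 genes were named after their values had been seen.

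Among the tropomyosins, TPM4, which encodes a short cytoskeletal form found on stress fibres, was at 369 in shCtrl (316 reads), 399 in shPJA1 (443 reads), 495 in TGFb1 (869 reads) and 429 in the shPJA/TGFb1-titled library (263 reads). TGFb1 was the high library. The ratio was 1.34 (1.18 to 1.53) in TGFb1 over shCtrl, 1.08 (0.933 to 1.25) in shPJA1 over shCtrl and 1.07 (0.919 to 1.25) in the titled library over shPJA1. The titled library was at 0.866 (0.752 to 0.995) of TGFb1 and 1.16 (0.982 to 1.37) of shCtrl, and so lay between them. The interval against TGFb1 held 1 with total-read or upper-quartile scaling and with the trend on GC content removed.

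TPM3, which encodes cytoskeletal forms at the cell cortex, was at 313 in shCtrl (268 reads), 337 in shPJA1 (374 reads), 366 in TGFb1 (642 reads) and 333 in the titled library (204 reads). TGFb1 was again highest, at 1.17 (1.01 to 1.35) of shCtrl, an interval that held 1 with total-read or upper-quartile scaling. The other intervals held 1, from 0.909 (0.773 to 1.07) in the titled library over TGFb1 to 1.08 (0.917 to 1.26) in shPJA1 over shCtrl. The annotation lists 8 pseudogenes named after TPM3 and 1 after TPM4, none of them in the table.

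TPM1, which encodes both long stress fibre and short forms, was at 326 in shCtrl (279 reads), 324 in shPJA1 (360 reads), 308 in TGFb1 (541 reads) and 365 in the titled library (224 reads). Here the titled library was highest and TGFb1 lowest, with a ratio of 1.19 (1.01 to 1.39) between them, whose interval held 1 with TMM scaling and with the trend on GC content removed. The ratio of TGFb1 over shCtrl was 0.945 (0.816 to 1.10). A library value per gene sums all isoforms, so a shift between long and short tropomyosins of a gene could not be seen.

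TPM2, known best as the beta-tropomyosin of muscle, was low in all 4 libraries, at 19.9 in shCtrl (17 reads), 38.7 in shPJA1 (43 reads), 24.5 in TGFb1 (43 reads) and 17.9 in the titled library (11 reads). The shPJA1 library was high. TPM2 stood at 1.95 (1.09 to 3.64) in shPJA1 over shCtrl and at 0.463 (0.215 to 0.913) in the titled library over shPJA1. The other library with the hairpin in its title was at 0.902 (0.382 to 2.04) of shCtrl, and the 3 libraries other than shPJA1 lay between 17.9 and 24.5.

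As shares of all tropomyosin reads, TPM4 took 35.9% in shCtrl, 36.3% in shPJA1 and 41.5% in TGFb1, with 37.5% in the titled library. TPM1 took 31.7%, 29.5%, 25.8% and 31.9% in the same order. In TGFb1 TPM4 thus had its highest share and TPM1 its lowest. The interval of TPM4 there (39.36% to 43.62%) lay narrowly above that of shCtrl (32.73% to 39.18%) but overlapped that of the titled library (33.9% to 41.2%). The interval of TPM1 there (24.0% to 27.8%) did not overlap that of shCtrl (28.6% to 34.9%) but overlapped that of shPJA1 (27.0% to 32.2%). With the GC trend removed TPM4 took 36.4%, 36.1%, 40.9% and 37.9%, and TPM1 31.0%, 29.9%, 26.4% and 31.3%. No intervals were computed for these corrected shares, so whether TGFb1 and shCtrl would still not overlap was not tested. TPM3 held between 29.1% and 30.7% and TPM2 between 1.57% and 3.52%. These shares, too, were computed after the levels had been seen.

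Of the regulatory light chains of myosin II, MYL12A, the ubiquitous non-muscle form, was at 273 in shCtrl (234 reads), 260.2 in shPJA1 (289 reads), 282 in TGFb1 (495 reads) and 239.6 in the titled library (147 reads). The titled library was lowest, at 0.850 (0.702 to 1.02) of TGFb1, and all 5 intervals held 1. MYL9, the form best known from smooth muscle, was at 36.2 in shCtrl (31 reads), 38.7 in shPJA1 (43 reads), 33.6 in TGFb1 (59 reads) and 45.6 in the titled library (28 reads). Its 5 intervals held 1 as well, the widest ratio being 1.36 (0.834 to 2.16) in the titled library over TGFb1, and a difference of that size was not detectable at this depth.

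The near-identical neighbour MYL12B, a regulatory light chain outside the 10 genes, was at 325 in shCtrl, 393 in shPJA1 and 399 in TGFb1, with 411 in the titled library. The shCtrl library was the low one, with ratios to it of 1.21 (1.04 to 1.41) in shPJA1, 1.23 (1.07 to 1.42) in TGFb1 and 1.26 (1.06 to 1.50) in the titled library. MYL12A made up 43.1% of the reads of the 3 regulatory light chains in shCtrl (38.9% to 47.4%), 37.6% in shPJA1 (34.1% to 41.1%), 39.4% in TGFb1 (36.7% to 42.2%) and 34.4% in the titled library (29.9% to 39.1%). Reads shared by MYL12A and MYL12B could be split by the counting, and the annotation lists 1 pseudogene named after MYL12A. The heavy chain that these light chains serve in non-muscle myosin, MYH9, was at 0.850 (0.772 to 0.936) in shPJA1 over shCtrl, or 0.911 with the GC trend removed, where the interval held 1, and at 1.21 (1.09 to 1.35) in the titled library over shPJA1.

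FLNA, which also anchors filaments to integrin tails and many signalling proteins, was the steadiest of the 10 at 871 in shCtrl (745 reads), 879 in shPJA1 (976 reads), 822 in TGFb1 (1443 reads) and 899.7 in the titled library (552 reads). All 5 intervals held 1, from 0.944 (0.863 to 1.03) in TGFb1 over shCtrl to 1.09 (0.991 to 1.21) in the titled library over TGFb1. VCL was at 222 in shCtrl (190 reads), 276 in shPJA1 (306 reads), 251 in TGFb1 (440 reads) and 239.6 in the titled library (147 reads). The shPJA1 library was high at 1.24 (1.03 to 1.49) of shCtrl. The other library with the hairpin in its title was at 1.08 (0.864 to 1.35) of shCtrl and 0.956 (0.788 to 1.16) of TGFb1.

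Base composition moved with several of these ratios. Over all genes, those with 60% GC in the transcript stood 0.06 above their own mean over the libraries on the log2 scale in shCtrl and 0.08 above it in the titled library, but 0.03 below it in shPJA1 and 0.08 below it in TGFb1. The annotated transcripts of FLNA (62.2% GC), MYL9 (60.5%), TPM2 (60.4%), ACTG1 (57.8%) and ACTB (56.0%) are GC-rich, and those of MYL12A (44.9%), TPM4 (47.3%), TPM3 (48.3%) and VCL (49.3%) are not. With the trend removed, ACTB was at 1.01 (0.961 to 1.06) in shPJA1 over shCtrl and 1.02 (0.974 to 1.06) in TGFb1 over shCtrl, so those lower values were no longer seen. ACTG1 then stood at 0.902 (0.858 to 0.949) in shPJA1 over shCtrl and at 1.01 (0.962 to 1.06) in the titled library over TGFb1. In TGFb1 over shCtrl it was at 1.05 (1.001 to 1.095), barely above 1 in place of below. In the titled library, ACTB kept 1.16 (1.11 to 1.22) over shPJA1, 1.15 (1.10 to 1.21) over TGFb1 and 1.17 (1.11 to 1.24) over shCtrl. TPM4 in TGFb1 over shCtrl was almost the same at 1.33 (1.17 to 1.52), as were VCL at 1.27 (1.06 to 1.53) and TPM2 at 2.09 (1.17 to 3.90) in shPJA1 over shCtrl.

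**Figure D4:**
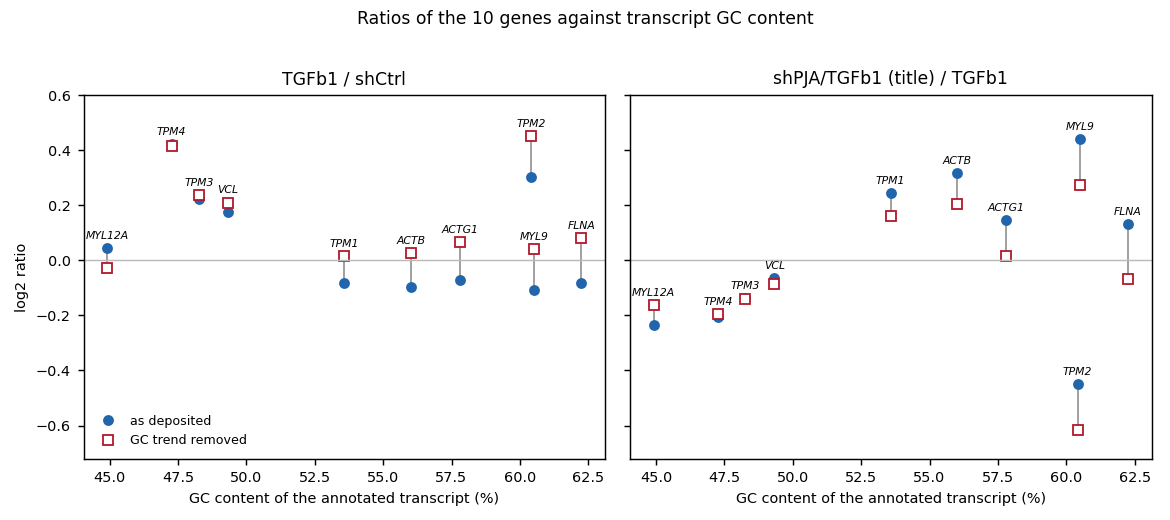
Log2 ratio of each of the 10 genes against the GC content of its annotated transcript in percent, for TGFb1 over shCtrl (left) and for the titled library over TGFb1 (right). Values are shown as deposited (filled circles) and with the GC trend, fitted to genes with a mean of at least 20, removed (open squares). The GC-rich genes move up on the left, ACTG1 from -0.07 to above 0, and down on the right, while TPM4, at 47.3% GC, hardly moves.

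The test across all genes was an additive fit of the hairpin and of TGFb1 by title in edgeR's quasi-likelihood framework. The fit has 1 residual degree of freedom and shares its spread between genes. A gene whose TGFb1 ratio differs with and without the hairpin has that difference counted as error in this test. None of the 10 genes passed it, against 0.00979% of 10210 genes for the hairpin, which was PJA1 alone, and 0.0392% for TGFb1. PJA1 fell by 1.80 on the log2 scale (SE 0.37, edgeR adjusted p = 0.0155), and SMAD7 rose by 1.09 (SE 0.22, edgeR adjusted p = 0.00141). For the 10 genes the hairpin term lay between -0.15 and 0.33 and the TGFb1 term between -0.34 for TPM2 and 0.26 for TPM4. The TPM4 term had an SE of 0.17 and an edgeR adjusted p of 0.9994. At an unadjusted p under 0.05 edgeR counted 235 of the 10210 genes fitted (2.30%) for the hairpin and 383 (3.75%) for TGFb1. None of them was among the 10, which at such shares does not set the 10 genes apart. DESeq2 called 0 genes for either term at an adjusted p under 0.05.

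By title the libraries form a layout of hairpin and TGFb1, and a departure from additivity is the TGFb1 log2 ratio with the hairpin minus that without it. Its counting interval excluded 0 for 5 of the 10 genes, against 16.4% of 12454 genes and 39.1% of those with a mean of at least 200. ACTB departed by 0.40 (0.31 to 0.50) and ACTG1 by 0.39 (0.29 to 0.50), where 70.7% of genes with a mean of at least 2000 had an interval off 0. TPM2 departed by -1.41 (-2.66 to -0.16), TPM4 by -0.32 (-0.61 to -0.03) and VCL by -0.38 (-0.75 to -0.00056). With the GC trend removed the actins were at 0.19 and 0.16, TPM2 at -1.68, TPM4 at -0.31 and VCL at -0.43, all still off 0. These values rest on the library with conflicting labels, and 1 library per condition leaves no test of them. The layout and the fit above also take the TGFb1 library as without the PJA1 hairpin. The labels do not say whether its cells carried any hairpin, so TGFb1 and shCtrl may differ in the control hairpin as well.

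The wider actin cytoskeleton was read from lists of 142 genes, 132 of them kept. Their intervals excluded 1 for 25 genes in shPJA1 over shCtrl (9 above and 16 below), for 43 in TGFb1 over shCtrl (26 and 17) and for 24 in the titled library over shPJA1 (18 and 6). For the titled library they did so for 30 over TGFb1 (16 and 14) and 21 over shCtrl (16 and 5). These are 18.9%, 32.6%, 18.2%, 22.7% and 15.9% of the kept list genes, beside 9.45%, 17.2%, 7.87%, 12.9% and 7.50% of all genes kept, of which many are of lower count. Among genes with a mean of at least 200, a level that not all list genes reach, the shares were 24.8%, 44.1%, 18.3%, 32.3% and 17.3%. The shares set beside each list below are over all genes kept and are not matched for depth. The list genes' medians lay between -0.05 and 0.06 on the log2 scale. With the GC trend removed the counts were 18, 28, 21, 28 and 22.

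Of 25 genes for monomer supply and filament turnover, 5 were above and 3 below in TGFb1 over shCtrl, where 9.12% of all genes kept were above and 8.04% below. Once the GC trend was removed, 5 of the list were above and 2 below. The capping protein subunit CAPZA2 stood at 1.66 (1.28 to 2.17), and LIMK2, a kinase that inactivates cofilin, at 0.622 (0.471 to 0.824). CAPZA2 was also at 1.38 (1.03 to 1.85) in shPJA1 over shCtrl, or 1.29 (0.963 to 1.73) with the GC trend removed, and the titled library was at 0.572 (0.415 to 0.776) of TGFb1. Profilin PFN1, which delivers monomers to growing ends, was at 1.25 (1.07 to 1.45) in the titled library over shPJA1, where the actins were high as well. With the GC trend removed PFN1 was at 1.16 (1.002 to 1.349). In that pair 3 of the 25 genes were above and 2 below, beside 4.24% and 3.64% of all genes kept. The 2 below were CAPZA2 at 0.689 (0.489 to 0.958) and DSTN at 0.813 (0.686 to 0.962). With the GC trend removed 3 of the list were above and 0 below.

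Of 31 nucleation genes 2 were above and 3 below in shPJA1 over shCtrl, where 4.98% of all genes kept were above and 4.47% below. In the list 1 was above and 4 were below with the GC trend removed. Among the 3 was the Arp2/3 subunit ARPC3 at 0.651 (0.436 to 0.969). The formin INF2 was highest in the titled library, at 1.72 (1.24 to 2.39) over shPJA1, 1.68 (1.24 to 2.25) over TGFb1 and 1.52 (1.08 to 2.13) over shCtrl. NCKAP1, a subunit of the WAVE complex, was at 1.28 (1.17 to 1.39) and cortactin CTTN at 0.804 (0.721 to 0.897) in TGFb1 over shCtrl.

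Of 25 kept crosslinkers and filament binders 7 were above and 1 below in the titled library over shPJA1, beside 4.24% and 3.64% of all genes kept. In TGFb1 over shCtrl 2 were above and 6 below, beside 9.12% and 8.04%. With the GC trend removed, 4 were above and 2 below in the titled library over shPJA1, and 3 above and 2 below in TGFb1 over shCtrl. Radixin, RDX, which links filaments to the plasma membrane, was lowest in shCtrl, with ratios to it of 1.41 (1.23 to 1.62) in shPJA1, 1.34 (1.18 to 1.53) in TGFb1 and 1.40 (1.20 to 1.64) in the titled library. Calponin CNN2 was highest in the titled library, at 1.36 (1.12 to 1.65) of shPJA1 and 1.59 (1.32 to 1.90) of TGFb1. The LIM protein LASP1 was at 0.805 (0.743 to 0.873) in TGFb1 over shCtrl and at 1.29 (1.18 to 1.41) in the titled library over TGFb1.

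Among 21 kept adhesion partners of vinculin 6 were above and 1 below in TGFb1 over shCtrl, beside 9.12% and 8.04% of all genes kept, and 3 above and 0 below with the GC trend removed. Above were tensin TNS1 at 1.83 (1.19 to 2.88), LIMS1 at 1.34 (1.08 to 1.67) and integrin-linked kinase ILK at 1.32 (1.06 to 1.66). In shPJA1 over shCtrl 1 was above and 3 below, beside 4.98% and 4.47% of all genes kept, and 2 and 2 with the GC trend removed. Below were VASP, a filament elongation factor at adhesions, at 0.641 (0.478 to 0.857), and talin TLN1 at 0.859 (0.757 to 0.975). VCL itself was at 1.24 there, so vinculin and its partner talin lay on opposite sides of 1. Talin was at 0.921 (0.811 to 1.05) with the GC trend removed.

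Of 17 kept genes of the SRF axis 4 were above and 3 below in TGFb1 over shCtrl, beside 9.12% and 8.04% of all genes kept, and 4 above and 1 below with the GC trend removed. The immediate-early gene EGR1 was at 0.555 (0.505 to 0.609) there and at 0.799 (0.727 to 0.880) in shPJA1 over shCtrl. FHL2, a LIM protein, was lowest in shCtrl, with ratios to it of 1.44 (1.07 to 1.93) in shPJA1, 1.32 (1.01 to 1.75) in TGFb1 and 1.47 (1.05 to 2.05) in the titled library. SRF was at 202 in shCtrl, 167 in shPJA1 and 159 in TGFb1, with 171 in the titled library, and MKL1 at 81.8, 92.7, 95.7 and 104. These latter 2 were named after their values had been seen.

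**Figure D5:**
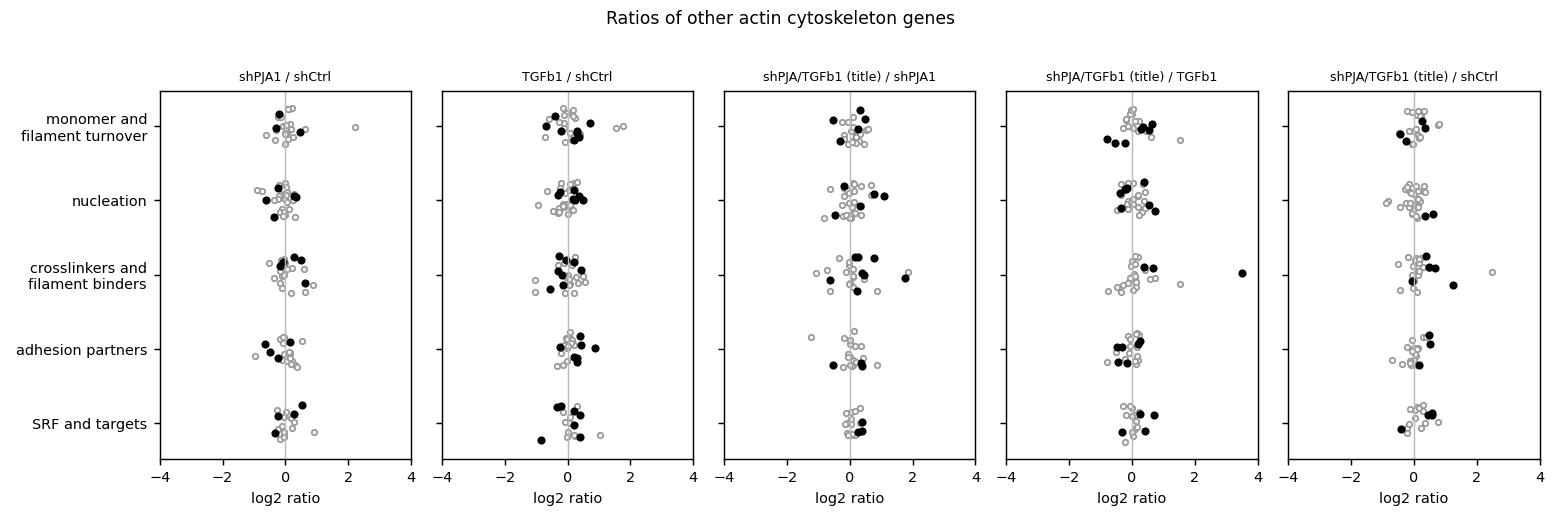
Log2 ratios of genes in 5 lists of the actin cytoskeleton (rows) in 5 pairs of libraries (panels), with 1 point per kept gene, filled where the 95% counting interval excludes 0. The 2 kept genes with 0 reads in the titled library are not drawn in its pairs. Points lie on both sides of 0 in every panel for the 5 lists together, with the GC trend not removed.

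The genes whose pattern over the 4 libraries was nearest the median of the 10, by Euclidean distance of centred log2 normalized counts among 2054 genes, were TNFRSF21 (0.027), FAT1 (0.029), RPL3 (0.031), IRAK1 (0.035) and MKL2 (0.039). The median pattern itself was shallow, running from -0.05 in shCtrl over -0.01 in shPJA1 and 0.01 in TGFb1 to 0.04 in the titled library.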

How the data were processed

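The deposited signal is 1 value per gene symbol and library. The table is named as FPKM, but its values carry no division by gene length. In each library 100% of the values are, to a tolerance of 1e-06, whole multiples of what 1 read is worth. They are thus reads over a size factor, which was 0.856 for shCtrl, 1.11 for shPJA1, 1.76 for TGFb1 and 0.614 for the shPJA/TGFb1-titled library. Per the labels' protocols, TRIZOL extracts of total RNA went into Illumina TruSeq libraries. The submitters' processing notes name Cufflinks, TopHat2 2.0.10, Trimmomatic and FastQC. The sources used here do not give the build, the annotation or the handling of strand and of reads with several matches.

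From the recovered reads, ratios of normalized counts were computed with exact conditional 95% intervals of 2 Poisson counts, and shares with exact (Clopper-Pearson) binomial intervals. Intervals and the floor of 3 reads for a count of 0 (1.71 normalized counts in TGFb1, 4.89 in the titled library) cover counting error only. Genes with a mean of at least 1 were kept, and 2-fold was taken on log2 of the value plus 1. The additive fit used edgeR 4.0.16 in R 4.3.3 (TMM, quasi-likelihood, Benjamini-Hochberg adjustment, at least 40 reads), with DESeq2 1.42.0 as the alternative. Transcript GC content and length came from GENCODE release 29, matched for 98.9% of genes with a mean of at least 20, and a lowess trend on GC (span 0.3) was subtracted per library as an alternative. Promoter windows were those of RefSeq. The ratio, share and fit steps were tested on simulated data. Other steps ran in scipy 1.17.1, statsmodels 0.14.6, pandas 2.3.3, numpy 2.4.6 and matplotlib 3.10.9 under Python 3.11.15.

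Named were the 10 genes, PJA1, SMAD7, up to 3 genes of each wider list per pair with a mean of at least 20 and the largest ratios whose interval excludes 1, and the 5 nearest patterns at a mean of at least 200. The genes and lists were chosen with earlier results of these data known. Of the genes this rule takes from the wider lists, the text gives a selection. Some results of the wider lists are withheld and not reported here.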

Additional observations from a re-analysis of the deposited data

Results flagged for a closer look

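Both cytoplasmic actins differed in direction between the contrasts that the titles form, and the difference was not tested, since each condition has 1 library. For TGFb1, ACTB was at a ratio of 0.935 without the hairpin and 1.23 with it, and ACTG1 at 0.953 without and 1.25 with it. For the hairpin, ACTB was at 0.944 without TGFb1 and 1.25 with it, and ACTG1 at 0.842 without and 1.11 with it. All 4 contrasts with a ratio above 1 have the shPJA/TGFb1-titled library, whose labels conflict, in the numerator. The TGFb1 library enters as without the PJA1 hairpin, though the labels do not say whether its cells carried a hairpin. Transcript GC content moved with these ratios. With its trend removed, the direction no longer differed for TGFb1, where ACTB was at 1.02 without the hairpin and 1.16 with it and ACTG1 at 1.05 and 1.17. Nor did it differ for the hairpin in ACTB, at 1.01 without TGFb1 and 1.15 with it. ACTG1 was then at 0.902 without TGFb1 and at 1.01 (0.962 to 1.06) with it. For each gene the TGFb1 and the hairpin contrasts differ by 1 and the same quantity, the departure from additivity. On the log2 scale this was 0.40 for ACTB and 0.39 for ACTG1. With the GC trend removed it was smaller, at 0.19 (0.10 to 0.29) and 0.16 (0.06 to 0.26), with counting intervals still off 0.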

How the results depend on the processing

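With 1 library per condition, no library can be left out and a value kept for its condition. For the same reason no paired analysis was possible. Of the 16 intervals of the 10 genes that excluded 1 over 50 gene and pair combinations, TMM scaling lost 1 (TPM1 in the titled library over TGFb1). Total-read scaling lost 2 (TPM3 in TGFb1 over shCtrl, TPM4 in the titled library over TGFb1). Upper-quartile scaling lost the same 2 and gained FLNA in the titled library over TGFb1. Removal of the GC trend lost 5 and gained 1, ACTG1 in the titled library over shCtrl at 1.06 (1.0005 to 1.118). It turned ACTB to 1.01 in shPJA1 over shCtrl and to 1.02 in TGFb1 over shCtrl, and ACTG1 to 1.05 in TGFb1 over shCtrl. Under it 1 of the 10 genes was off 1 in the titled library over TGFb1 and 2 over shCtrl, and 28 wider list genes in TGFb1 over shCtrl. Genes at 2-fold over the table numbered 1102 in shPJA1 over shCtrl, 1183 in TGFb1 over shCtrl, and in the titled library 1489 over shPJA1, 1331 over TGFb1 and 1617 over shCtrl. With a pseudocount of 5 they were 134, 171, 257, 234 and 349, and at a mean of at least 20 they were 44, 100, 93, 112 and 141. With no filter beyond 1 read they were 1819 and 2035 over shCtrl, and 2100 over TGFb1 and 2775 over shCtrl in the titled library. The hairpin term, at 1 gene in edgeR, had 0 genes with DESeq2 and 0 with the GC offset, and the TGFb1 term, at 4, had 0 with DESeq2, where 4 and 23 genes had an unadjusted p under 0.05. The cause was not tested. The lowest adjusted p of any of the 10 genes over all settings of edgeR and DESeq2 was 0.948 for TGFb1 and 0.995 for the hairpin.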

Other observations

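Thymosin beta-4, TMSB4X, which sequesters actin monomers and is abundant in many tissues, had at most 6 reads in any library, whereas its relative TMSB10 was at 604 in shCtrl, 523 in shPJA1 and 528 in TGFb1, with 502 in the titled library. TMSB4X was named after its values had been seen. Whether its reads were lost to other copies in the counting was not tested.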
